A study of Arabidopsis thaliana with 48 samples.

Results

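The step from day 3 to day 4 of synchronised flower development in Arabidopsis thaliana was examined in 8 of 24 inflorescence samples, chosen as all samples labelled day 4 (n = 4) and all labelled day 3 (n = 4). Day 4 plants had been induced for 4 days and day 3 plants for 3 days. Both groups, and the samples of days 0, 1, 2 and 5 with 4 replicates each, were pAP1:AP1-GR ap1cal mutants in Col-0. Day 4 and day 3 plants received 2 µM dexamethasone with ethanol and Silwet L-77 as a drench of the inflorescences, first at 8 h after lights on and then daily at 4 h after lights on, at 21 °C with 16 h of light and 8 h of dark. For days 0, 1, 2 and 5 the labels list the same dexamethasone concentration, induction times, light and temperature. In this line, loss of AP1 and CAL leaves the shoot tips as cauliflower-like masses of inflorescence meristems. The AP1 fusion to the hormone-binding domain of the glucocorticoid receptor waits in the cytoplasm until dexamethasone lets it enter the nucleus, after which many meristems start to form flowers together. The fusion is driven by the AP1 promoter, so it acts where that promoter is active. The design holds no course without dexamethasone, so time alone and AP1 activity cannot be told apart.

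A shoot or floral meristem keeps a stem cell pool through WUS, a homeobox factor made below the stem cells, and CLV3, a peptide that the stem cells send back to restrain WUS. KNOX factors such as STM, with BELL partners, keep the surrounding cells undifferentiated, CUC factors mark the boundaries where organs separate, and DRNL marks the founder cells of new organs. As organs grow out, CIN-type TCP factors move cells from division to differentiation, and the outer cell layer lays down a cuticle of cutin and wax and starts the stomatal lineage.

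PolyA RNA was counted per gene, and the 8 samples held 26.56 to 27.98 M counts with 21842 to 22105 genes detected. Values below are CPM, counts scaled per 1 M of effective library size, and changes are log2 fold changes of day 4 over day 3 with a standard error (SE). A gene is said to have risen or fallen where the adjusted p of edgeR's quasi-likelihood test was under 0.05 over 19747 tested genes. In a whole tissue, fewer cells of a type and less RNA per cell cannot be told apart.

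Day 3 replicate 4 stood apart by genes that were high in it. It lay at 43.9 on component 3 of a principal component analysis, against -16.1 to -3.2 for the other day 3 samples, and on component 1 it lay at 28, against 20.9 to 40.8 for day 4 and 6.7 to 7.8 for the other day 3 samples. In it 127 genes were at least 4-fold above the mean log2 CPM of the other replicates of its day, against 5 to 20 genes in the other 7 libraries. Genes at least 4-fold below that mean numbered 27 in it, 52 in day 3 replicate 3, 49 in day 4 replicate 1 and 8 to 34 in the other 5. On component 4, day 4 replicate 1 lay at 29.3, against 8.6 to 15.2 for the other day 4 samples. Markers of the tapetum, the nurse layer of the anther, were high in day 3 replicate 4. The marker A6 stood at 1.26, 1.09, 0 and 1.18 CPM at day 4, against 0.405, 0.218, 0.0354 and 19.9 CPM at day 3, replicates 1 to 4. A9, AMS and ATA7 reached 12.2, 12.5 and 6.34 CPM in that library and 1.35 CPM at most in the other 7, and MS1, a later marker, reached 1.20 CPM against 0.0742 CPM at most. A6 also averaged 3.21, 3.73 and 3.29 CPM on days 1, 2 and 5. Of 27 anther and tapetum genes 22 were highest there, and their summed level was 228.2 to 254.5 CPM at day 4, against 247.4 to 253.8 CPM in day 3 replicates 1 to 3 and 403.9 CPM in replicate 4. Of 14 mature pollen genes 4 were analysed here. DUO1 and PPME1, defining markers, did not pass 0.0742 CPM in any of the 8 libraries, while GEX1 stood at 0.262 to 0.817 CPM at day 4 and 0.295 to 0.583 CPM at day 3, and AGL65 at 3.81 to 4.53 CPM at day 4 and 3.50 to 4.57 CPM at day 3. The labels do not say how the replicates were staged, and members of the gene lists whose call changed without day 3 replicate 4 are given both ways. Among 545 tested list genes 18 gained a call without it and 3 lost theirs.

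**Figure D1:**
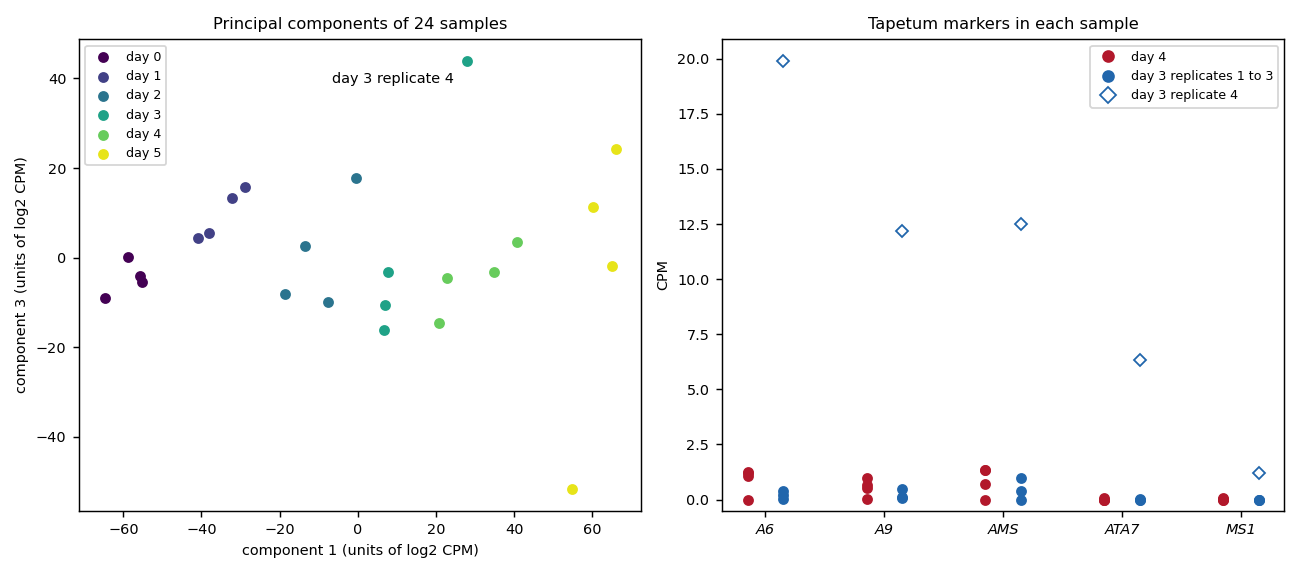
The left panel places each of the 24 samples (1 point each) by principal components 1 and 3 of log2 CPM, and the right panel plots CPM of 5 tapetum markers in each day 4 and day 3 sample. Day 3 replicate 4 lies at 43.9 on component 3, and all 5 markers are highest in it, A6 with 19.9 CPM.

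Between day 4 and day 3, 286 genes changed (1.45% of 19747), 190 of them higher at day 4 (0.962%) and 96 lower (0.486%). Rises were larger than falls, with a median log2 fold change of 0.695 against -0.476, and 50 rises but 8 falls reached 2-fold. The day 4 and day 3 samples did not overlap for 276 of the 286 genes, a state that 8.26% of all tested genes showed. Without day 3 replicate 4 there were 238 rises and 101 falls, which held 160 of the 190 rises and 79 of the 96 falls. That library was the highest of day 3 for 107 of the 190 genes that rose and the lowest of day 3 for 36 of the 96 that fell. The counts moved by over 1.5 times when some other single libraries were left out. Without day 3 replicate 1 there were 78 rises and 33 falls, and without day 3 replicate 2 there were 84 and 52. Without day 4 replicate 1, 2 or 4 there were 102, 105 or 96 rises and 39, 58 or 45 falls, and without day 5 replicate 1, which enters this comparison only through the shared fit, 288 and 148. The calls of 67 rises and 27 falls held whichever of the 8 libraries was left out. Within sequencing batch 1, whose runs held 4.5 to 7.82 M counts at day 4 and 8.92 to 10.03 M counts at day 3, there were 118 rises and 46 falls. Within batch 2, with 19.46 to 22.61 M counts at day 4 and 16.83 to 19.06 M counts at day 3, there were 164 and 82.

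Several meristem and stem cell genes were lower at day 4. Of 25 tested genes of this list 6 fell, none rose and 19 did not pass, with a median log2 fold change of -0.197 against -0.0011 over all tested genes. Over all tested genes 0.486% fell and 0.962% rose. WUS stood at 0.779, 1.54, 1.97 and 1.26 CPM at day 4, against 2.69, 3.71, 2.02 and 2.70 CPM at day 3. The groups stood apart by a narrow margin, since the highest day 4 sample was just under the lowest of day 3, and the log2 fold change was -1.0 ± 0.23 (SE, adjusted p = 0.0262). STM, the KNOX factor that maintains the meristem, stood at 81.2, 94.3, 86.9 and 95.7 CPM at day 4, against 124, 116, 120 and 123 CPM at day 3. All 4 day 4 samples were well below all 4 of day 3, and the change was -0.43 ± 0.08 (SE, adjusted p = 0.00853).

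The BELL partners of STM, BLH9 and BLH8, fell as well. BLH9 (PENNYWISE) averaged 85.6 ± 3.3 CPM at day 4 and 102 ± 3.9 CPM at day 3 (SD, n = 4 each), and BLH8 (POUND-FOOLISH) averaged 22.5 ± 1.6 CPM at day 4 and 28.6 ± 2.5 CPM at day 3. The KNOX gene KNAT6 fell by 0.33 on the log2 scale and PAN, a bZIP factor that helps to set floral organ number, fell by 0.48. CLV3 was low throughout, with 0.371, 0.337, 0.371 and 0.481 CPM at day 4, against 0.811, 0.801, 0.638 and 0.638 CPM at day 3. These samples did not overlap either, but the change of -0.88 ± 0.26 (SE) rested on 42 and 79 summed counts and did not pass (adjusted p = 0.1). CLV1, the CLV3 receptor, stood at 44.4 to 58.1 CPM at day 4 and 49.6 to 64.0 CPM at day 3, and KNAT1, another KNOX gene, at 98.0 to 121 CPM at day 4 and 97.9 to 131 CPM at day 3, so the samples of the days overlapped for both. The falls among meristem genes were thus called for 6 of 25, and not for CLV1, CLV3 or KNAT1.

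STM and PAN kept their calls whichever of the 8 libraries was left out. KNAT6 lost its call without day 3 replicate 1 or 2 (adjusted p up to 0.068), and WUS without those or day 4 replicate 1, 2 or 4 (up to 0.124). BLH8 lost it without day 3 replicate 1, 2 or 4 or day 4 replicate 1, 2 or 4 (up to 0.12), and BLH9 kept it only without day 3 replicate 2 (up to 0.11). Without day 3 replicate 4 the list had 5 falls, with TEL1 added (-0.82, adjusted p = 0.0247) and BLH8 and BLH9 lost. Falls over all tested genes went from 96 to 101 in that setting.

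Of 18 boundary and founder cell genes 6 fell and none rose, against 0.486% and 0.962% of all tested genes. The median log2 fold change of the list was -0.352. DRNL, an AP2-type factor of organ founder cells, stood at 3.15, 3.75, 4.53 and 2.52 CPM at day 4, against 10.7, 5.68, 7.51 and 6.90 CPM at day 3. Every day 4 sample was under every day 3 sample, and the change of -1.14 ± 0.22 (SE, adjusted p = 0.00805) was the largest fall among genes with a symbol, at least 5 CPM on the higher day and days that do not overlap. CUC2 stood at 23.2, 23.4, 23.9 and 20.8 CPM at day 4, against 33.6, 32.4, 30.1 and 33.5 CPM at day 3. CUC2 varied little within each day, and its call (-0.51 ± 0.07 SE, adjusted p = 0.000783) held without any one of the 8 libraries. CUC1 fell by 0.40 and CUC3 by 0.51 on the log2 scale. CUC3 is the one of the 3 whose days overlapped, with 17.0 to 28.2 CPM at day 4 and 28.1 to 36.6 CPM at day 3.

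HAN, a GATA factor of the boundary between meristem and organ, held between 16.4 and 17.1 CPM in the 4 day 4 samples, against 23.2 to 30.4 CPM at day 3. LSH1, an ALOG family member, stood at 3.97 to 6.15 CPM at day 4 and 7.28 to 10.9 CPM at day 3, and its relative LSH10, outside the list, at 4.60 to 6.28 CPM at day 4 and 10.5 to 10.8 CPM at day 3. The other boundary genes did not pass. BOP2 (-0.02) and RAX1 (-0.01) lay near no change, LOF1 (-0.29, adjusted p = 0.0684) and JLO (-0.49, adjusted p = 0.104) lay lower, and DRN, the close relative of DRNL, lay at -0.78 with overlapping days (adjusted p = 0.27). HAN, LSH1 and LSH10 kept their calls without any one of the 8 libraries. DRNL lost its call without day 3 replicate 1 (adjusted p = 0.0536), CUC1 without day 3 replicate 1 or 2 or day 4 replicate 1 or 4 (up to 0.0907), and CUC3 without day 3 replicate 1, 2 or 4 or day 4 replicate 1, 2 or 4 (up to 0.117). The list thus had 5 falls without day 3 replicate 4, where 101 of all tested genes fell.

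CUC1 and CUC2 transcripts are known to be cut under miR164, and CUC3 is not such a target. The mature miR164a and the sites that were found in the 2 transcripts are shown because these 3 genes fell together, with and without a site. The miRNA has its seed (bases 2 to 8) in capitals, and each site has in capitals the bases that form a standard pair with the miRNA. All are written 5′ to 3′ from RefSeq on TAIR10.1.
miR164a: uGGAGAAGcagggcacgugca
CUC1 site: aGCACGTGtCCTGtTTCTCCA
CUC2 site: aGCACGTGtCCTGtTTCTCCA
The miRNA lies at chr2:19520770-19520790 (plus strand), the CUC1 site at chr3:5111137-5111157 (plus strand) and the CUC2 site at chr5:21902301-21902321 (minus strand). Both sites pair at 18 of 21 bases, with 2 G:U pairs and 1 mismatch, a penalty of 2 where a mismatch counts 1 and a G:U pair 0.5. The best window in CUC3 had a penalty of 8. With a limit of 4.5, 78 of 19219 searched transcripts (0.406%) held a site, of which 1 rose and 3 fell.

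**Figure D2:**
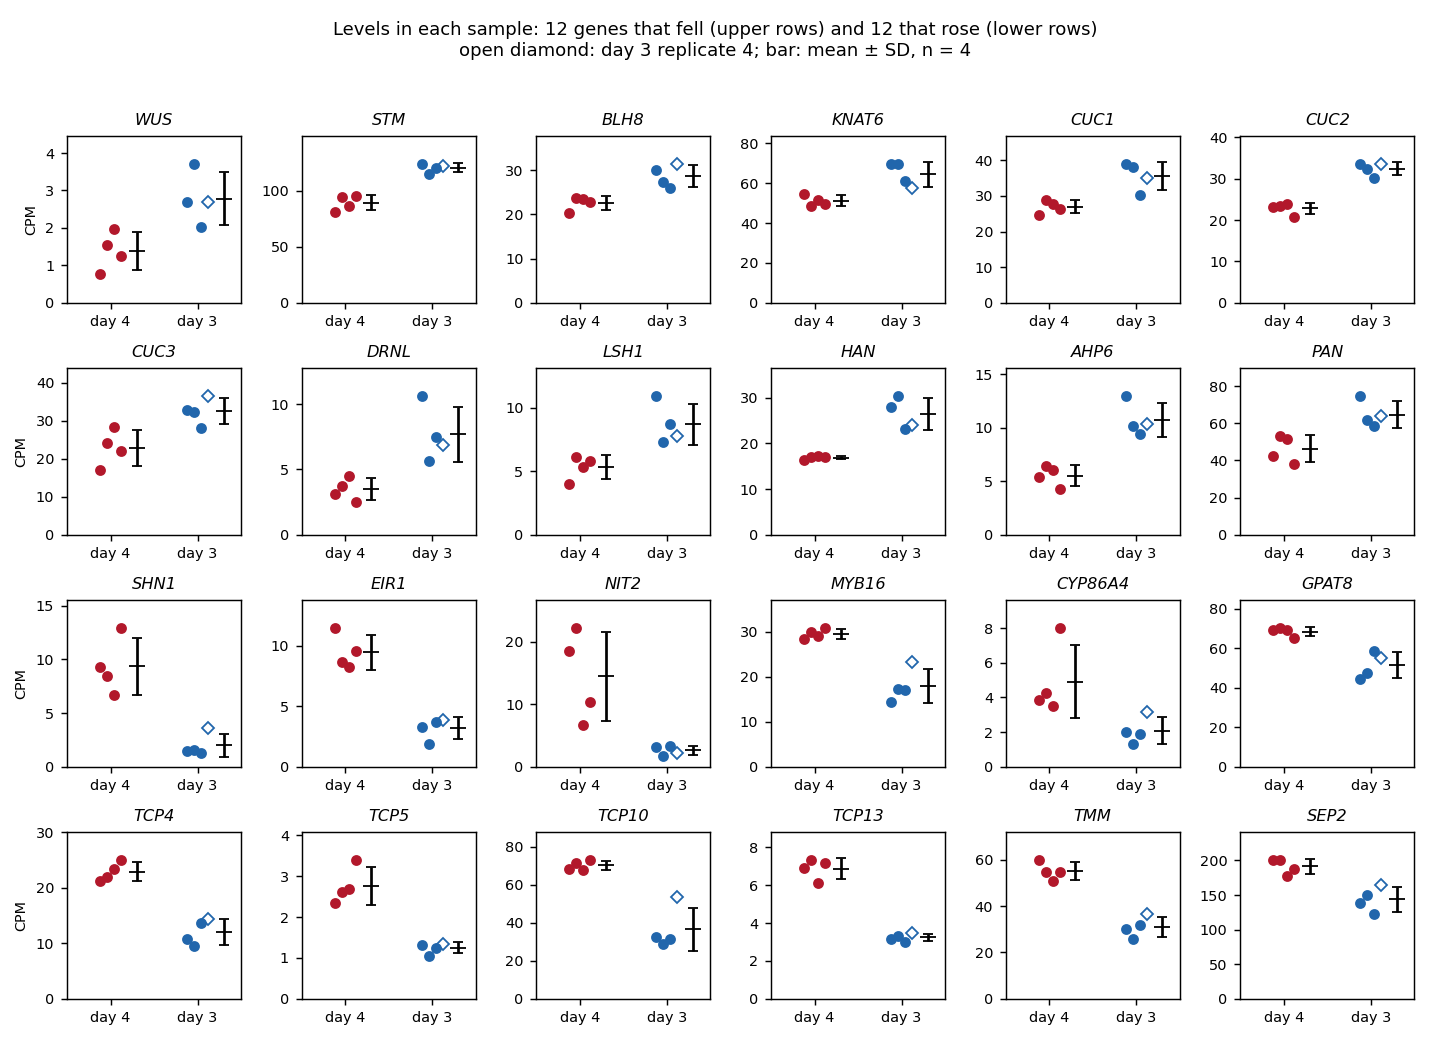
CPM of 12 genes that fell (upper rows) and 12 that rose (lower rows), 1 point per sample, with the mean ± SD (n = 4) beside each day and day 3 replicate 4 as an open diamond. All but CUC3 have day 4 and day 3 samples that do not overlap. The open diamond is the highest day 3 point for most of the genes that rose. These include SHN1, EIR1, MYB16, CYP86A4, TCP4, TCP5, TCP10, TCP13, TMM and SEP2, but not NIT2.

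Some genes of the hormone routes that place new organs were lower too. Of 25 auxin genes 4 fell and none rose (median -0.109), against 0.486% and 0.962% of all tested genes. AUX1, an auxin influx carrier, fell by 0.22, and AIL6 and AIL7, AINTEGUMENTA-like growth factors of young organs, fell by 0.50 and 0.55 on the log2 scale. AHP6, an inhibitor of cytokinin signalling that acts at organ initiation sites, stood at 5.42, 6.41, 6.05 and 4.25 CPM at day 4, against 13.0, 10.2, 9.43 and 10.4 CPM at day 3 (-0.96 ± 0.18 SE, adjusted p = 0.00525). No day 4 sample of AHP6 came near the lowest day 3 sample. It was the 1 fall among 23 cytokinin genes with all libraries. The 1 rise was CKX1, a cytokinin oxidase, with 6.59 to 8.28 CPM at day 4 and 2.59 to 5.10 CPM at day 3. CKX6, a related oxidase, lay at -0.57 (adjusted p = 0.0633) and was a 2nd fall without day 3 replicate 4 (-0.66, adjusted p = 0.0289).

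EIR1, an auxin efflux carrier and not in the list, rose. EIR1 (PIN2), best known from roots, stood at 11.5, 8.62, 8.21 and 9.51 CPM at day 4, against 3.28, 1.86, 3.72 and 3.86 CPM at day 3. The lowest day 4 sample was over 2 times the highest of day 3, and the change was 1.57 ± 0.19 (SE, adjusted p = 0.000243). AHP6 and EIR1 kept their calls without any one of the 8 libraries. AIL6 lost its call without day 3 replicate 1 (adjusted p = 0.0536), and CKX1 without day 3 replicate 1, 2 or 3 or day 4 replicate 1 (up to 0.0715). AUX1 lost it without day 3 replicate 1 or 2 or day 4 replicate 1, 2 or 4 (up to 0.092), and AIL7 without day 3 replicate 1 or 3 or day 4 replicate 1, 2 or 3 (up to 0.128).

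Of 24 floral transition genes 3 fell, and none rose unless day 3 replicate 4 was left out. Over all tested genes 0.486% fell and 0.962% rose with all libraries. SVP, AGL24 and FD, all highest on day 0, were lower again at day 4. SVP, a MADS repressor of flowering, averaged 101.5 CPM on day 0 and stood at 21.3, 24.7, 24.6 and 22.3 CPM at day 4, against 33.6, 34.0, 33.9 and 26.4 CPM at day 3. Its day 3 replicate 4 lay between the other day 3 samples and day 4, and the change was -0.46 ± 0.08 (SE, adjusted p = 0.00285) with it and -0.54 (adjusted p = 0.000211) without. FD, the bZIP partner of the florigen FT, stood at 30.4 to 42.1 CPM at day 4 and 49.6 to 65.8 CPM at day 3. AGL24 averaged 33.5 ± 2.1 CPM at day 4 and 40.3 ± 2.3 CPM at day 3 (SD, n = 4 each). FPF1, which promotes flowering, was outside this list and stood at 39.6, 44.8, 48.0 and 39.4 CPM at day 4, against 73.9, 73.2, 61.7 and 73.6 CPM at day 3 (-0.72 ± 0.08 SE, adjusted p = 0.000138). Its mean had stayed between 70.6 and 74.5 CPM from day 0 to day 3. TFL1, the inflorescence identity gene, did not pass (10.4 to 14.2 CPM at day 4 and 12.2 to 14.3 CPM at day 3), nor did SOC1, a MADS promoter of flowering (75.4 to 93.7 CPM at day 4 and 93.7 to 105 CPM at day 3, -0.21, adjusted p = 0.452). SPL5, an SBP factor that promotes flowering, stood at 89.1, 95.5, 80 and 103 CPM at day 4, against 60.3, 49.3, 59.2 and 89.3 CPM at day 3. Its day 3 replicate 4 lay among the day 4 samples, and SPL5 did not pass with it (0.51, adjusted p = 0.136) but rose without it (0.71, adjusted p = 0.0135).

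Of 22 floral meristem and organ identity genes 1 rose, 1 fell and 20 did not pass. Over all tested genes 0.962% rose and 0.486% fell. Without day 3 replicate 4 the list had 2 rises and 2 falls, and all tested genes had 238 and 101. SEP2, which acts with all classes of organ identity factors, rose (178 to 201 CPM at day 4 and 122 to 165 CPM at day 3, 0.41 ± 0.10 SE, adjusted p = 0.0276) and LFY, which sets floral meristem fate, fell (71.0 to 88.5 CPM at day 4 and 89.8 to 108 CPM at day 3, -0.38 ± 0.09 SE, adjusted p = 0.0415). AP3, a B class gene of petals and stamens, had averaged 8.74 CPM on day 0 and 172 CPM on day 3. AP3 stood at 165 to 186 CPM at day 4 and 142 to 192 CPM at day 3, PI at 122 to 145 CPM at day 4 and 106 to 165 CPM at day 3, and AG at 25.7 to 30.0 CPM at day 4 and 21.4 to 33.0 CPM at day 3. For all 3, the 4 day 4 values lay within the range of day 3. UFO (21.8 to 32.6 CPM at day 4 and 26.8 to 39.7 CPM at day 3), AP2 (104 to 119 CPM at day 4 and 88.8 to 117 CPM at day 3) and SEP1 (53.9 to 58.2 CPM at day 4 and 45.2 to 57.5 CPM at day 3) overlapped between the days and did not pass either. SEP3 lay above day 3 in all 4 samples (0.33 ± 0.12 SE) without passing (adjusted p = 0.196). AP1 reads, which can come from the fusion as well as the mutated gene, stood at 310 to 339 CPM at day 4 and 298 to 319 CPM at day 3. The genes added without day 3 replicate 4 were LMI1, a homeodomain factor that acts with LFY, which rose (0.66, adjusted p = 0.109 with it and 0.81, adjusted p = 0.0395 without), and CAL, mutated in this line, which fell (-0.35, adjusted p = 0.142 with it and -0.47, adjusted p = 0.0153 without). SVP and FD kept their calls without any one of the 8 libraries, and AGL24, LFY and SEP2 each kept theirs in 2 of 8 omissions, namely without day 3 replicate 4 or day 4 replicate 3 (adjusted p up to 0.146, 0.148 and 0.107 in the others).

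Of the 8 CIN-type TCP genes, 5 rose, against 0.962% of all tested genes. TCP3, TCP4, TCP5, TCP10 and TCP13 rose, TCP2, TCP17 and TCP24 did not pass, and none fell. TCP4 stood at 21.2, 22.0, 23.3 and 25.1 CPM at day 4, against 10.7, 9.47, 13.7 and 14.4 CPM at day 3 (0.92 ± 0.17 SE, adjusted p = 0.00612). TCP13 stood at 6.90, 7.35, 6.09 and 7.18 CPM at day 4, against 3.17, 3.31, 3.01 and 3.45 CPM at day 3 (1.09 ± 0.15 SE, adjusted p = 0.000783). TCP10 stood at 68.2, 71.3, 67.7 and 73.2 CPM at day 4, against 32.5, 28.6, 31.4 and 53.4 CPM at day 3. The high TCP10 sample of day 3 is replicate 4, and the change was 0.94 ± 0.16 (SE, adjusted p = 0.00226) with it and 1.19 (adjusted p = 3.9e-05) without. TCP5 rose by 1.15 and TCP3 by 0.64 on the log2 scale. TCP2 stood at 25.6 to 32.5 CPM at day 4 and 21.9 to 29.9 CPM at day 3 (0.27, adjusted p = 0.229), and it passed without day 3 replicate 4 (0.38, adjusted p = 0.0404).

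Of the growth-regulating factors, which keep organ cells dividing, GRF8 rose (36.1 to 43.3 CPM at day 4 and 19.9 to 27.3 CPM at day 3, 0.83 ± 0.12 SE, adjusted p = 0.000783), and GRF1 to GRF7 and GRF9 did not pass. GIF1, their shared coactivator, fell by 0.29 on the log2 scale, with 354 to 382 CPM at day 4 and 427 to 475 CPM at day 3. Over the whole list of 18 GRF, GIF and TCP genes 6 rose and 1 fell, against 0.962% and 0.486% of all tested genes. The 11 others lay on both sides of 0, and the median was 0.055. GRF8, GIF1, TCP4, TCP5, TCP10 and TCP13 kept their calls without any one of the 8 libraries. TCP3 kept its call only without day 3 replicate 4 (adjusted p up to 0.182 in the others).

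In Arabidopsis, miR319 cuts TCP2, TCP3, TCP4, TCP10 and TCP24 and leaves TCP5, TCP13 and TCP17 alone. The miR319a sequence and the sites found in the 5 targets are shown so that the TCP genes that rose can be read against them. Capitals mark the seed in the miRNA and standard pairs in the sites, as above.
miR319a: uUGGACUGaagggagcucccu
TCP2 site: caGGgGgaCCCTTCAGTCCAA
TCP3 site: gaGGgGtcCCCTTCAGTCCAt
TCP4 site: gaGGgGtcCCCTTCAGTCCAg
TCP10 site: AaGGgGtaCCCTTCAGTCCAg
TCP24 site: taGGgGgaCCCTTCAGTCCAA
The miRNA lies at chr4:12353109-12353129 (plus strand) on TAIR10.1. The sites lie at chr4:10163402-10163422 in TCP2, chr1:19850522-19850542 in TCP3, chr2:13221210-13221230 in TCP10 and chr1:10628989-10629009 in TCP24, all on the minus strand, and at chr3:5063300-5063320 in TCP4 on the plus strand. Their penalties were 4.5, 4.5, 3.5, 4.5 and 4, each with 15 or 16 standard pairs of 21. The limit of 4.5 was set after these windows were seen, so that all 5 known targets pass it. It then took in 56 of 19219 transcripts (0.291%), of which 3 rose and none fell. The best windows in TCP5, TCP13 and TCP17 had penalties of 8.5, 7.5 and 6. TCP genes that rose were thus found with a site (TCP3, TCP4, TCP10) and without one (TCP5, TCP13). The TCP genes that did not pass also held both kinds.

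Most epidermis and cuticle genes lay higher at day 4, but trichome genes, also of the outer cell layer, did not. Of 13 tested trichome genes 12 lay below 0, with a median of -0.209, and none was called. Of 36 epidermis and cuticle genes 5 rose and none fell, 32 of 36 lay above 0, and the median was 0.197. Of all 19747 tested genes 9801 lay above 0 and 0.962% rose. SHN1, an AP2-type activator of cutin genes, stood at 9.28, 8.44, 6.72 and 12.9 CPM at day 4, against 1.51, 1.6, 1.31 and 3.60 CPM at day 3. The lowest day 4 value was well over the highest of day 3, again replicate 4, and the change was 2.22 ± 0.32 (SE, adjusted p = 0.000783). SHN1 averaged 39.0 CPM on day 5, so its mean was higher still a day later. MYB16 and MYB106, MIXTA-like factors of the epidermis, rose as well. MYB16 stood at 28.3, 30.1, 29 and 30.9 CPM at day 4, against 14.3, 17.3, 17.1 and 23.3 CPM at day 3 (0.72 ± 0.16 SE, adjusted p = 0.0208), and MYB106 changed by 0.90 ± 0.21 (SE, adjusted p = 0.0306). Of the cutin enzymes, CYP86A4, a fatty acid hydroxylase, stood at 3.49 to 8.03 CPM at day 4 and 1.31 to 3.19 CPM at day 3, and GPAT8, an acyltransferase, at 65.3 to 70.4 CPM at day 4 and 44.3 to 58.4 CPM at day 3.

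Without day 3 replicate 4, 11 of the 36 genes rose, where rises over all tested genes went from 190 to 238. The 6 added were the cutin genes CYP77A6 (1.34, adjusted p = 0.00287), GPAT6 (1.14, adjusted p = 0.0114), HTH (0.52, adjusted p = 0.0291) and DCR (0.36, adjusted p = 0.0357), the transporter CER5 (0.39, adjusted p = 0.0186) and FDH (0.31, adjusted p = 0.0337). The summed level of the list was 7431 to 8307 CPM at day 4, against 6013 to 6764 CPM in day 3 replicates 1 to 3 and 8211 CPM in replicate 4. That replicate was the highest of the 8 libraries for 11 of the 36 genes, as it was for 22 of 27 anther genes, and the part of the anther genes in this was not tested. The wax genes CER1, CER2, CER3, CER4 and CER6 did not pass (0.00 to 0.53). SHN1 kept its call without any one of the 8 libraries, and GPAT8 lost it without day 3 replicate 1 or 2 or day 4 replicate 1 or 2 (adjusted p up to 0.121). The calls of MYB16, MYB106 and CYP86A4 ended without day 3 replicate 1, 2 or 3 or day 4 replicate 2 or 4, and for MYB106 and CYP86A4 also without day 4 replicate 1 (up to 0.107, 0.124 and 0.187).

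Of 16 stomatal lineage genes 3 rose and none fell, against 0.962% and 0.486% of all tested genes, with a median of 0.304. TMM, a receptor-like protein that spaces stomata, stood at 60.1, 54.8, 51.0 and 55.0 CPM at day 4, against 30.0, 25.8, 32 and 36.5 CPM at day 3 (0.83 ± 0.15 SE, adjusted p = 0.0036). SCRM2, a bHLH partner of the stomatal fate factors, stood at 32.3 to 39.3 CPM at day 4, against 17.4 to 24.3 CPM at day 3 (0.83 ± 0.12 SE, adjusted p = 0.000789). POLAR, a polarity protein of the dividing precursor, stood at 16.6 to 18.9 CPM at day 4 and 9.32 to 14.8 CPM at day 3. In all 3 the days stood clear of each other, and the calls held without any one of the 8 libraries. SPCH, which starts the lineage, and BASL, which polarises it, lay at 0.50 (adjusted p = 0.0542) and 0.69 (adjusted p = 0.0627), and both passed without day 3 replicate 4 (adjusted p = 0.0164 and 0.0109). FAMA and MUTE, which act later in the lineage, did not pass (0.27 and 0.29). No member of this list was highest in day 3 replicate 4. The summed level of the list overlapped between the days, with 819.1 to 926.9 CPM at day 4 and 833.1 to 951.1 CPM at day 3.

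**Figure D3:**
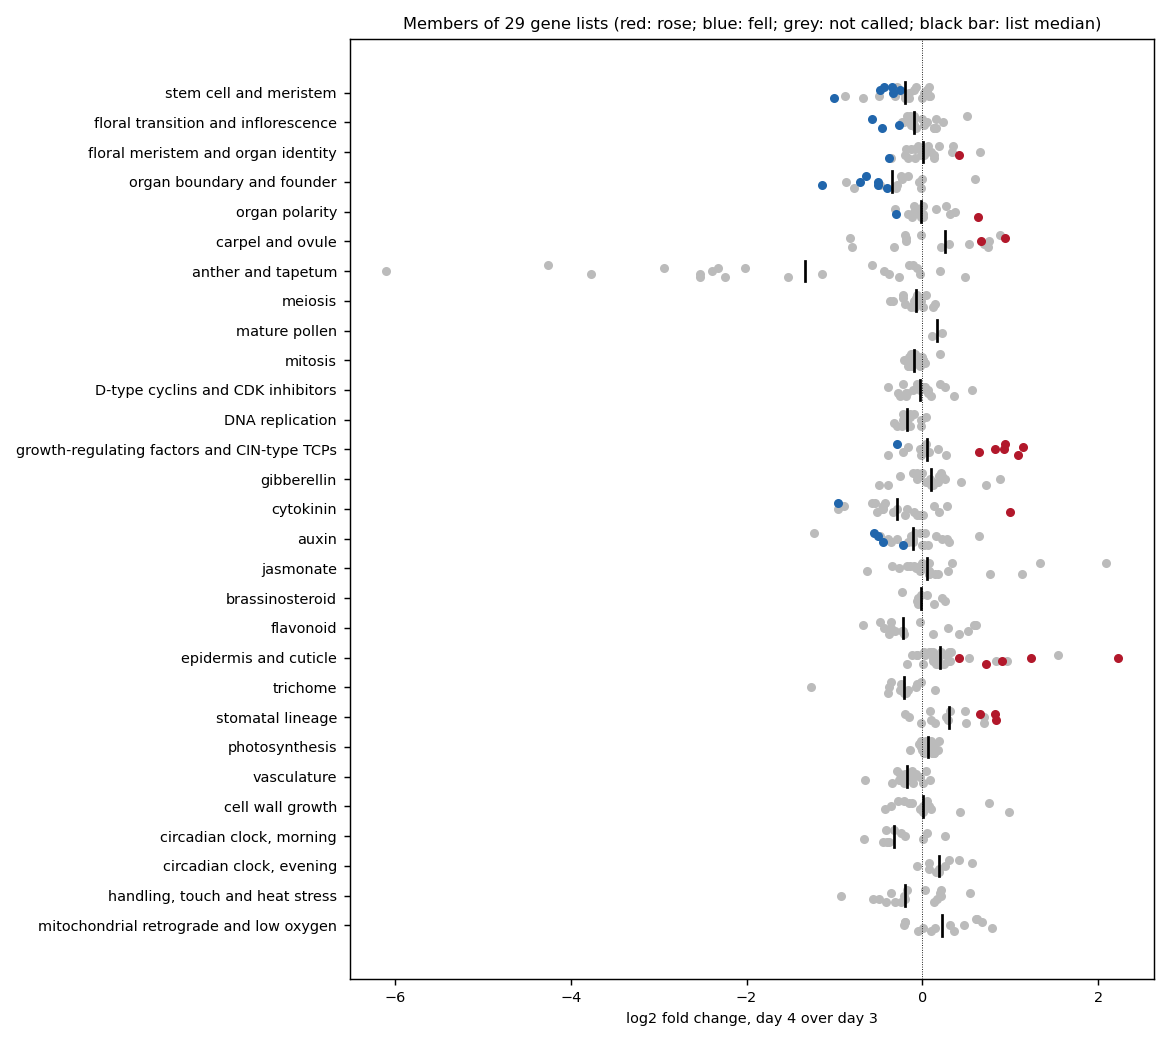
Each point is the log2 fold change of day 4 over day 3 of 1 tested gene in 1 of 29 gene lists, red where it rose, blue where it fell and grey where it did not pass, and black bars are list medians. Blue points gather in the stem cell, boundary and auxin lists, red points in the TCP, epidermis and stomatal lists, and the grey anther points reach -6.10 with day 3 replicate 4 included.

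Of 16 carpel and ovule genes 2 rose, none fell and 14 did not pass, against 0.962% and 0.486% of all tested genes that rose and fell. NGA2 and NGA3, B3 factors of style and leaf margin growth, rose by 0.66 and 0.93 on the log2 scale. Without day 3 replicate 4 the carpel list had 5 rises of 16, where 238 of all tested genes rose. Added were NGA1 (0.69, adjusted p = 0.0112), NGA4 (1.24, adjusted p = 0.0173) and STY2 (0.38, adjusted p = 0.016), so that all 4 NGATHA genes passed. SRS5 and SRS7, SHI-related factors outside this list, fell and are given below. CRC, a YABBY factor of carpel and nectary, stood at 19.9, 28.6, 20.2 and 25.3 CPM at day 4, against 11.2, 10.4, 8.22 and 26.3 CPM at day 3. It did not pass with day 3 replicate 4 (0.75, adjusted p = 0.428) or without it (1.24, adjusted p = 0.0858). Among the carpel and organ growth genes of low level, SPL (also NZZ), which starts sporogenous tissue, stood at 1.52 to 2.06 CPM at day 4 and 0.354 to 2.93 CPM at day 3, with replicate 4 the highest (0.49, adjusted p = 0.797). SUP, which bounds stamens from carpels, stood at 2.18 to 3.08 CPM at day 4 and 1.81 to 3.80 CPM at day 3, and JAG, a zinc finger factor of organ growth, at 11.2 to 16.5 CPM at day 4 and 10.5 to 14.5 CPM at day 3. KNU, which shuts down WUS in the floral meristem, was under the filter, with 0.149 to 0.371 CPM at day 4 and 0.106 to 0.600 CPM at day 3. Of 17 polarity genes 1 rose and 1 fell, against 0.962% and 0.486% of all tested genes. KAN3 rose by 0.63 and ETT, an auxin response factor, fell by 0.30 on the log2 scale. NGA2 lost its call without replicate 1 or 3 of either day (adjusted p up to 0.0716), NGA3 without day 3 replicate 2 or 3 or day 4 replicate 1 (up to 0.0693), and ETT without day 3 replicate 1 or 2 or day 4 replicate 1, 2 or 4 (up to 0.117). KAN3 kept its call only without day 3 replicate 4 (up to 0.141 in the others).

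No member passed in the other 18 lists with all libraries. Of these lists, jasmonate had 1 call without day 3 replicate 4, and the other 17 had none. The proliferation lists had medians of -0.0997 over 25 mitosis genes, -0.174 over 16 DNA replication genes and -0.0286 over 19 D-type cyclin and inhibitor genes. All 16 DNA replication genes were highest of the 8 libraries in day 3 replicate 4, and without it their median was -0.074. Photosynthesis (30 genes, 0.061), meiosis (19 genes, -0.0721), vasculature (18 genes, -0.171) and trichome genes (13 genes, -0.209) had no call either. Some uncalled lists had medians as far from 0 as lists with calls. Clock genes that peak in the morning had a median of -0.321, with 8 of 11 below 0, and those that peak in the evening had 0.186, with 9 of 10 above 0. Genes of mitochondrial retrograde signalling and low oxygen had 0.224, with 10 of 14 above 0, and handling and heat stress genes had -0.196 over 17 genes with day 3 replicate 4 and 0.0368 without it. Summed levels overlapped for the morning clock (340.2 to 470.1 CPM at day 4 and 355.5 to 463.4 CPM at day 3), the evening clock (687.4 to 844.3 CPM at day 4 and 603.5 to 809.5 CPM at day 3) and the retrograde list (862.5 to 1697 CPM at day 4 and 716.4 to 1278 CPM at day 3). The anther and tapetum list had a median of -1.34 over 22 genes with day 3 replicate 4 and 0.566 without it, and none passed either way. Jasmonate genes (26 tested, median 0.0545) summed to 2640 to 5237 CPM at day 4 and 2748 to 5359 CPM at day 3, and flavonoid genes (17 tested, median -0.218) to 846.9 to 1455 CPM at day 4 and 1120 to 1863 CPM at day 3. The highest day 3 sum of both lists was replicate 4, against 3082 and 1234 CPM at most in replicates 1 to 3. The jasmonate call without that replicate was LOX2, a lipoxygenase of jasmonate synthesis, which stood at 153, 316, 219 and 420 CPM at day 4, against 112, 67.0, 123 and 203 CPM at day 3. It did not pass with replicate 4 (1.13, adjusted p = 0.115) and rose without it (1.46, adjusted p = 0.0325).

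Several of the largest changes lay outside the lists. By the same criteria as for DRNL, NIT2, a nitrilase, had the largest rise, with 18.5, 22.3, 6.72 and 10.4 CPM at day 4, against 3.17, 1.78, 3.37 and 2.21 CPM at day 3 (2.46 ± 0.36 SE, adjusted p = 0.000783). The 4 day 4 values spread over 3-fold and all exceeded day 3. NIT2 has near copies in NIT1 and NIT3, ELI3-2 in ELI3-1 and UGT74F2 in UGT74F1, and reads may be shared between such copies. ELI3-2, a cinnamyl alcohol dehydrogenase, rose by 2.11, UGT74F2, a salicylate glucosyltransferase, by 1.94, and NAP, a NAC factor known as an activator of senescence, by 1.61 on the log2 scale. CORI3, a coronatine- and jasmonate-induced gene, stood at 152, 244, 154 and 288 CPM at day 4, against 63.2, 55.9, 59.3 and 152 CPM at day 3. Its lowest day 4 sample was level with its highest day 3 sample, replicate 4. The CORI3 change was 1.34 ± 0.32 (SE, adjusted p = 0.0315) with day 3 replicate 4 and 1.82 (adjusted p = 0.00174) without. ABS2, a NGATHA-like B3 repressor of growth, rose by 1.43 ± 0.24 (SE, adjusted p = 0.00283). NIT2 and ABS2 kept their calls without any one of the 8 libraries, while ELI3-2 lost it without day 3 replicate 1 or 2 or day 4 replicate 2 (adjusted p up to 0.0774). NAP and CORI3 lost it without day 3 replicate 1, 2 or 3 or day 4 replicate 4, and also without day 4 replicate 1 (NAP) or 2 (CORI3), with an adjusted p up to 0.101 and 0.133. UGT74F2 kept its call only without day 4 replicate 3 (adjusted p up to 0.16 in the others, and 0.0711 without day 3 replicate 4).

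The other genes of this ranking were smaller changes. UGT76E11, a glycosyltransferase, stood at 5.72 to 12.1 CPM at day 4 and 2.26 to 5.03 CPM at day 3 (1.26 ± 0.24 SE, adjusted p = 0.00586), and scpl35, a serine carboxypeptidase-like gene, at 80.1 to 121 CPM at day 4 and 32 to 49.8 CPM at day 3 (1.22 ± 0.22 SE, adjusted p = 0.00431). Of the falls, ABCE1, an ABC family ATPase, stood at 6.20 to 7.81 CPM at day 4 and 8.72 to 10.8 CPM at day 3 (-0.57 ± 0.10 SE, adjusted p = 0.00285). These 3 genes kept their calls without any one of the 8 libraries. SAP, a regulator of floral organ and ovule growth, stood at 5.75 to 7.87 CPM at day 4 and 8.89 to 12.2 CPM at day 3 (-0.59, adjusted p = 0.0208), and did not pass when replicate 1 of either day or day 4 replicate 4 was left out (up to 0.117). FLS6, a member of the flavonol synthase family, stood at 4.53 to 6.14 CPM at day 4 and 7.72 to 12.5 CPM at day 3, where replicate 4 was the highest. Its change was -0.78 ± 0.17 (SE, adjusted p = 0.018). It was -0.62 and no longer passed without day 3 replicate 4 (adjusted p = 0.0575), nor did it when replicate 1 of either day was left out (up to 0.0757).

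The following genes were picked after their values were seen. AT5G55720, annotated as pectin lyase-like, stood at 10.2, 6.49, 5.64 and 11.6 CPM at day 4, against 0.405, 0.655, 0.744 and 2.14 CPM at day 3 (3.11 ± 0.40 SE, adjusted p = 0.000313). AT5G33370, a GDSL-like lipase, stood at 87.8, 73.0, 49.2 and 132 CPM at day 4, against 9.36, 9.14, 11.9 and 26.1 CPM at day 3 (2.60 ± 0.34 SE, adjusted p = 0.000313). AT2G20870, a cell wall protein precursor, stood at 36.3, 35.9, 22.2 and 65.3 CPM at day 4, against 2.95, 4.08, 5.00 and 14.5 CPM at day 3. In all 3 every day 4 sample was above every day 3 sample, replicate 4 was the highest of day 3, and replicate 4 was also the highest of day 4 in each. GDSL-like lipases include cutin polymerising enzymes. Of 49 tested genes with this RefSeq product 5 rose and none fell, against 0.962% and 0.486% of all tested genes. The family median was 0.0434, against -0.0011 over all tested genes. WIP5 and WIP4, zinc finger factors, fell by 1.95 and 1.01 on the log2 scale, and SRS5 and SRS7, SHI-related factors, by 0.52 and 0.43. WIP5 and WIP4 did not meet the criteria under which DRNL had the largest fall, which ask for at least 5 CPM on the higher day. WIP5, SRS5 and SRS7 kept their calls without any one of the 8 libraries, and WIP4 lost it without day 3 replicate 1 or 2 or day 4 replicate 1, 2 or 4 (adjusted p up to 0.116).

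The promoters of the changed genes, taken from 250 bases before to 50 after the annotated start on TAIR10.1, were searched for known elements, as a description. The auxin element (TGTCTC, either strand) was in 17.9% of the promoters of genes that rose, 10.4% of those of genes that fell and 13.6% of 19663 promoters. The G-box (CACGTG) was in 11.1% of the promoters of rises, 7.29% of those of falls and 8.84% of all, and the LFY core (CCANTG, either strand) in 25.3% of the promoters of rises, 26.0% of those of falls and 25.9% of all. The TCP site (GGNCCCAC, either strand) was in 0.526% of the promoters of rises, 1.04% of those of falls and 1.62% of all, that is in 1 promoter of each changed group. The mitotic core (AACGG, either strand) was in 23.2% of the promoters of rises, 27.1% of those of falls and 26.6% of all. The CArG box, the motif of MADS factors, was in 3.68%, 1.04% and 3.21% of the promoters of rises, falls and all, the evening element (AAAATATCT) in 3.16%, 4.17% and 3.02%, and the E2F site (TTTCCCGC) in 0.526%, 0% and 0.91%.

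The genes of this step were then followed in samples of days 2 and 5, which had no part in the comparison beyond the shared fit. The span from day 2 to day 5 contains the step and shares its estimate of spread. A high share of calls among genes chosen by the step is thus no independent support. Between day 5 and day 2, 179 of the 190 genes that rose were called higher at day 5, against 18.4% of all tested genes, 1 was called lower and 10 did not pass. Of the 96 that fell, 91 were called lower at day 5, against 14.1% of all, and none was called higher. The median log2 fold change of day 5 over day 2 was 1.34 for the rises, -0.904 for the falls and -0.0081 for all tested genes. Day 5 replicate 1 lay at -51.6 on component 3 and apart from the rest of day 5 (-1.9 to 24.3), and without it the counts were 180 and 90. CUC3 was among the 5 falls that did not pass (-0.04, adjusted p = 0.816). The course of the means over the 6 days is given as a description, since genes chosen as higher at day 4 cannot peak on day 3 and genes chosen as lower cannot peak on day 4. The highest mean fell on day 5 for 150 of the 190 rises, on day 4 for 32 and on day 0 for 8, against 34.1%, 20.2% and 24.1% of the 9794 tested genes whose mean was higher at day 4 than at day 3. Falls had their highest mean on day 0 for 42 genes, day 1 for 39, day 2 for 10 and day 3 for 5, against 31.7%, 18.9%, 11.6% and 14.4% of the 9953 genes whose mean was lower at day 4. The mean moved in the same direction at all 5 daily steps for 30 rises, against 8.81% of the genes higher at day 4, and for 33 falls, against 6.68% of the genes lower at day 4.

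**Figure D4:**
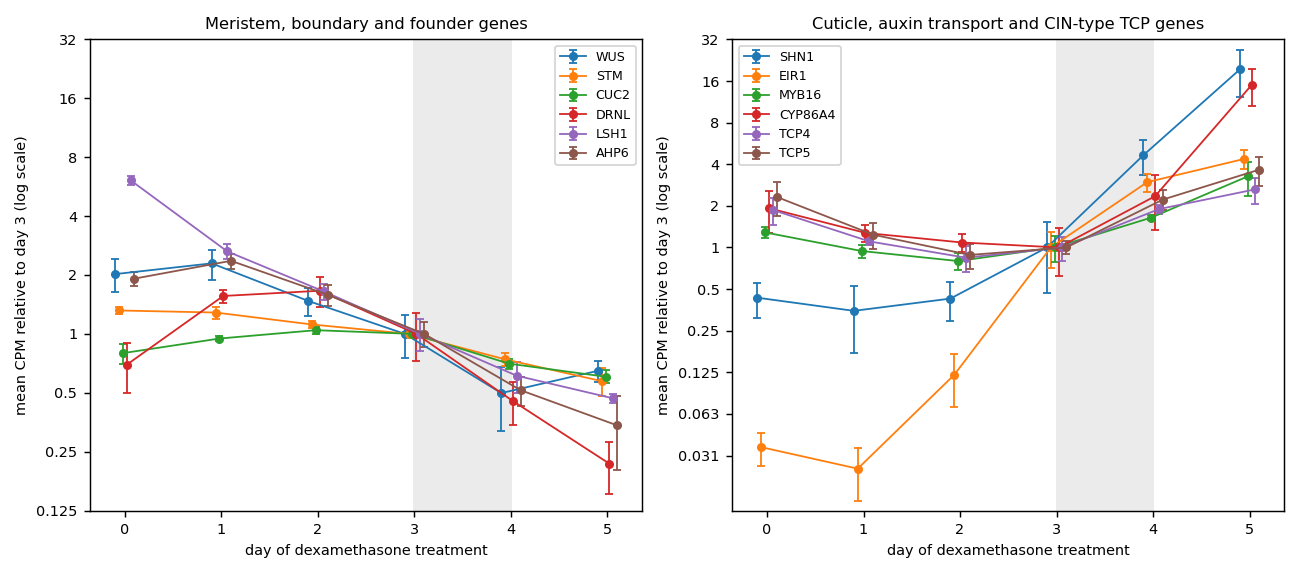
Mean CPM by day relative to day 3 (log scale), with bars of 1 SD (n = 4) relative to the same day 3 mean, and the step from day 3 to day 4 shaded. STM and LSH1 decline at each step, DRNL is highest on day 2, and SHN1 lies at 9.35 CPM on day 4 against 2.01 CPM on day 3.

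Single genes had different courses over the 6 days. STM averaged 159, 155, 135, 121, 89.5 and 69.3 CPM from day 0 to day 5 and LSH1 53.0, 22.9, 14.3, 8.69, 5.31 and 4.07 CPM, so both declined at every step. DRNL averaged 5.35, 12, 12.8, 7.69, 3.49 and 1.67 CPM and CUC2 25.8, 30.7, 33.9, 32.4, 22.8 and 19.6 CPM, so both were highest on day 2. TCP4 averaged 22.6, 13.4, 10.2, 12.1, 22.9 and 31.8 CPM and TMM 36.4, 26.7, 23.7, 31.1, 55.2 and 60.7 CPM, and both dipped to day 2 before they climbed. EIR1 averaged 0.114, 0.0799, 0.382, 3.18, 9.45 and 13.9 CPM, so its mean had begun to climb from day 1.

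Whether a gene changed differently in this step than in the other daily steps was tested in the same fit. The value tested was the step minus the mean of the steps from day 1 to 2, 2 to 3 and 4 to 5. A gene that was flat here but moved in the other steps could pass as well. By edgeR no gene passed (0% of 19747 called, 1801 at an unadjusted p under 0.05), and DESeq2 called 27. Of the genes 4 missed the threshold narrowly, named here after their values were seen. They were CCL and MEE14, both of which rose, and AT4G15160, not called at this step (all with an adjusted p of 0.0504), and SCRM2 (0.96 on the log2 scale, adjusted p = 0.0514). No other gene had an adjusted p under 0.1. The step minus the mean of the others was -0.73 ± 0.31 for WUS (SE, adjusted p = 0.519), 1.03 ± 0.45 for SHN1 (adjusted p = 0.523) and 2.29 ± 0.56 for AT5G55720 (adjusted p = 0.263). Other steps by the same rule called 1.9% of genes (day 2 against day 1), 0.871% (day 3 against day 2) and 12.2% (day 5 against day 4). At a threshold of 0.05 no gene can be called particular to the step from day 3 to day 4 by this test.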

How the data were processed

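PolyA RNA of 24 samples was sequenced in 2 batches, per the labels' protocols. The submitters' processing notes name the build TAIR10 and the tools FastQC, Trim Galore, Salmon 0.12.0 and DESeq2, without their roles. The table that the authors deposited has 1 column per run, with expected counts (estimated per gene) given as whole numbers. Runs of the same sample were added before any test, which leaves n = 4 per day. Between the runs of 1 sample the counts had a chi-square of 1.05 to 1.20 per degree of freedom, against 5.96 to 26.3 between 12 pairs of replicates.

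Genes were filtered by filterByExpr (minimum count 10, minimum total 15), which left 19747 of 23069, and scaled by TMM. edgeR 4.0.16 on R 4.3.3 fitted day over all 24 samples (18 residual degrees of freedom), with Benjamini-Hochberg adjustment over all tested genes and a call under 0.05. The SE is the log2 fold change over the square root of F. Names, coordinates and sequences come from the RefSeq annotation TAIR10.1, to which 22915 genes matched, and the 154 others were organellar.

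The members, 29 lists of 593 genes, alternatives and naming rule were chosen with earlier results of these data known, so counts of list members are no independent support. The rule named 28 core genes, the 10 largest rises and falls with a mean of at least 5 CPM on the higher day, days that do not overlap and a symbol, and called list members. Of the 28 core genes 27 were tested, 8 fell and 1 rose. Comparisons with day 5 or with other steps, the GDSL and B3 families and the miRNA limit were added after the calls were seen. P-values measure the spread between biological replicates as labelled. Alternatives were DESeq2 1.42.0, other scaling and filters, the replicate block, each batch, each library left out, and glmTreat at a fold of 1.5. The test was checked on simulated counts. Values of 1 gene are not reported here.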

Additional observations from a re-analysis of the deposited data

Results flagged for a closer look

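In groups of 4 samples, a sample was marked where its gap to the nearest other sample took up most of the range of its group. Of 152 groups checked 17 were marked, and chance marks about 1 in 20. Day 3 replicate 4 accounted for 8 of them. Against the other day 3 samples it was high for KNU (0.6 CPM), CRC (26.3 CPM), SHN1 (3.6 CPM) and CORI3 (152 CPM), low for SVP (26.4 CPM), and high in the summed CPM of the anther and tapetum (404 CPM), jasmonate (5360 CPM) and flavonoid (1860 CPM) lists.

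The other marks were spread over the other 7 libraries. At day 4 they were AP3 in replicate 2 (186 CPM), LSH10 in replicate 1 (4.6 CPM), and the summed CPM of the carpel (225 CPM) and brassinosteroid (594 CPM) lists in replicate 3 and of the stem cell list in replicate 4 (2800 CPM). At day 3 they were UGT74F2 in replicate 2 (1.68 CPM), FPF1 (61.7 CPM) and the mature pollen list (4.96 CPM) in replicate 3, and SAP in replicate 1 (12.2 CPM).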

How the results depend on the processing

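Against 190 rises and 96 falls, DESeq2 called 325 rises and 160 falls, scaling by size factors of the DESeq2 kind 194 and 92, library totals 173 and 95, no filter 179 and 89, and a mean of at least 10 CPM 114 and 73. Batch 1 alone called 118 and 46 and batch 2 alone 164 and 82. Separate runs with batch as a covariate called 1062 and 680, but runs of a sample are not independent. The compared days alone called 113 and 34, and a fold of at least 1.5 (glmTreat) 8 and 0. Leaving out 1 library or 1 replicate number gave 24 to 288 rises and 12 to 148 falls, and leaving out day 3 replicate 4 and day 5 replicate 1 together, chosen after seeing the data, 377 and 178. Against 0 genes that changed unlike the other steps, DESeq2 called 27, library totals 3, no filter 4, batch 1 alone 3, separate runs 906, days 1 to 5 alone 2, the day 0 to 1 step in the mean 61, the 2 libraries left out together 1, single libraries left out 0 to 5, and single replicate numbers left out 0 to 8. Fewer samples enter the fit of the compared days alone. Beyond that, the cause was not tested.

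With the replicate number as a block there were 207 rises and 97 falls, and 0 genes changed unlike the other steps. Deviations from the day means of day 4 and day 3 samples of the same number correlated with r of 0.33, -0.0016, 0.24 and 0.33 over genes for numbers 1 to 4. Between different numbers 10 of 12 values were negative. The deviations of a day sum to 0 over its samples, which favours negative values there once the same numbers correlate. These signs are thus no separate support. Of the 4 values of the same number 3 were over 0.1, and 5 of 8 samples correlated best with their own number. Different numbers also reached 0.30 (day 4 replicate 3 with day 3 replicate 2) and 0.17 (day 4 replicate 2 with day 3 replicate 4). Whether the number has a shared effect was not tested. The labels do not say what the numbers mark, and with 1 value at about 0 they were not taken to pair the samples.

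Of 1678 values under the alternatives of 68 genes (core genes, largest changes and the called list members of smallest p), 1328 kept direction and call, 322 kept direction only, 2 gained a call and 26 changed sign, all of genes without a call. List members without a call in the comparison of all libraries lie outside this tally, and 18 of them gained one without day 3 replicate 4. AP3 lay at 0.0017 (DESeq2), 0.0017 (its size factors), 0.0011 (mean of at least 10 CPM), 0.0015 (block), 0.0088 (batch 1), 0.0042 (separate runs), 0.055 (2 libraries left out together) and between -0.084 and 0.0734 over omissions. Omissions put PI between -0.188 and 0.0326, AG between -0.167 and 0.0258, SUP between -0.401 and 0.0283, JAG between -0.083 and 0.209, and FIL between -0.0717 and 0.0655. The 2 libraries left out together put PI at 0.015, AG at 0.026 and FIL at 0.066. With 42 to 79 summed counts a day, depth limits what can be said of CLV3.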

Other observations

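A tandem run of B3 factor genes on chromosome 4 was lower at day 4, seen after the called genes were read. The neighbours REM1 (AT4G31610), AT4G31615, AT4G31620 and AT4G31640 fell by 0.52, 0.53, 0.72 and 0.82 on the log2 scale. REM1, first described from reproductive meristems, stood at 54.2, 62.8, 63.5 and 49.3 CPM at day 4, against 86.5, 89.0, 79.2 and 74.9 CPM at day 3 (edgeR, adjusted p = 0.00738). AT4G31620 stood at 32, 25.5, 34.1 and 24.1 CPM at day 4, against 55.1, 50.8, 43.6 and 40.5 CPM at day 3 (adjusted p = 0.00103). AT4G31630, between them, lay at -0.71 with at most 0.983 CPM in any of the 8 libraries and did not pass (adjusted p = 0.319). The next B3 genes along the chromosome did not pass, AT4G31650 at 0.14, AT4G31680 at 0.11, AT4G31685 at -0.14 and AT4G31690 at -0.20. REM1 and AT4G31615 overlap in the annotation, and near copies may share reads. AT4G31615 lost its call without replicate 1 or 4 of either day (adjusted p up to 0.109), and the other 3 kept theirs in all 8.

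Over all 67 tested genes whose RefSeq product names a B3 domain, 9 fell and 3 rose, and the median was 0.0148. Over all tested genes 0.486% fell and 0.962% rose. The 3 that rose, NGA2, NGA3 and ABS2, belong to the NGATHA and NGATHA-like branch.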
